A study of Mus musculus with 4 samples.

Results

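The genes for 10 acute-phase plasma proteins were followed in liver RNA from 4 groups of mice. They are Saa1, Saa2, Saa3, Saa4, Orm1, Orm2, Hp, Apcs, Crp and Fgb. Members were found by matching the transcript accession of each array probe, without its version, to these symbols. All 10 had a probe, with 1 probe each, out of 56605 probes and 23462 genes named on the array. The groups were aging diabetic mice given astragalus polysaccharide (APS) together with metformin, aging diabetic mice given metformin alone, untreated aging diabetic mice, and naturally aging mice without diabetes or drug. APS is a polysaccharide preparation from the root of astragalus, and metformin is a biguanide that lowers blood glucose. All mice were male, the tissue was whole liver, and every mouse had fasted for 12 h. Strain, age, doses, the way diabetes was brought about and the number of mice behind each RNA are not given in the sources used here. What the 60 days named in the titles count is not given either.

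Each group was measured on 1 array. No test across animals was therefore possible, and every difference below is a difference between 2 arrays. Values are log2 of the processed red-channel signal minus the log2 of that array's 75th percentile, so 0 is the 75th percentile of all spots. The error given is the one the image analysis attached to both spots. It covers measurement only and leaves out the spread between mice. Genes were called when the 2 arrays differed by at least 2-fold, or 1 on the log2 scale. Between 33668 and 37402 of 59305 spots were well above background on an array, and no spot other than controls was saturated. The 7 hepatocyte markers set for the check of tissue were all well above background on all 4 arrays.

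Acute-phase proteins are plasma proteins, made mainly by hepatocytes, whose output shifts when interleukin-6 and interleukin-1 reach the liver during inflammation or injury. Interleukin-6 acts through its receptor and gp130 on the transcription factor STAT3, and interleukin-1 acts through NF-kB, with the C/EBP factors taking part on many of the promoters. In mice, serum amyloid A and serum amyloid P component (Apcs) respond strongly, whereas C-reactive protein (Crp), a leading acute-phase protein in humans, responds weakly.

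All 10 members were bright on all 4 arrays. Every member spot was well above background. Its median pixel signal lay between 9554 and 69272, at most 8.92% of the scanner's saturation value of 776377. Levels of different probes were not set against each other, because probes differ in how well they hybridize. Image analysis put an outlier flag for uneven pixels on 8 of the 40 member spots, and these spots were kept. They were Saa3 on the natural aging array, Saa4 on the APS plus metformin, aging diabetic and natural aging arrays, Apcs on the metformin and natural aging arrays, and Crp on the APS plus metformin and aging diabetic arrays.

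**Figure D1:**
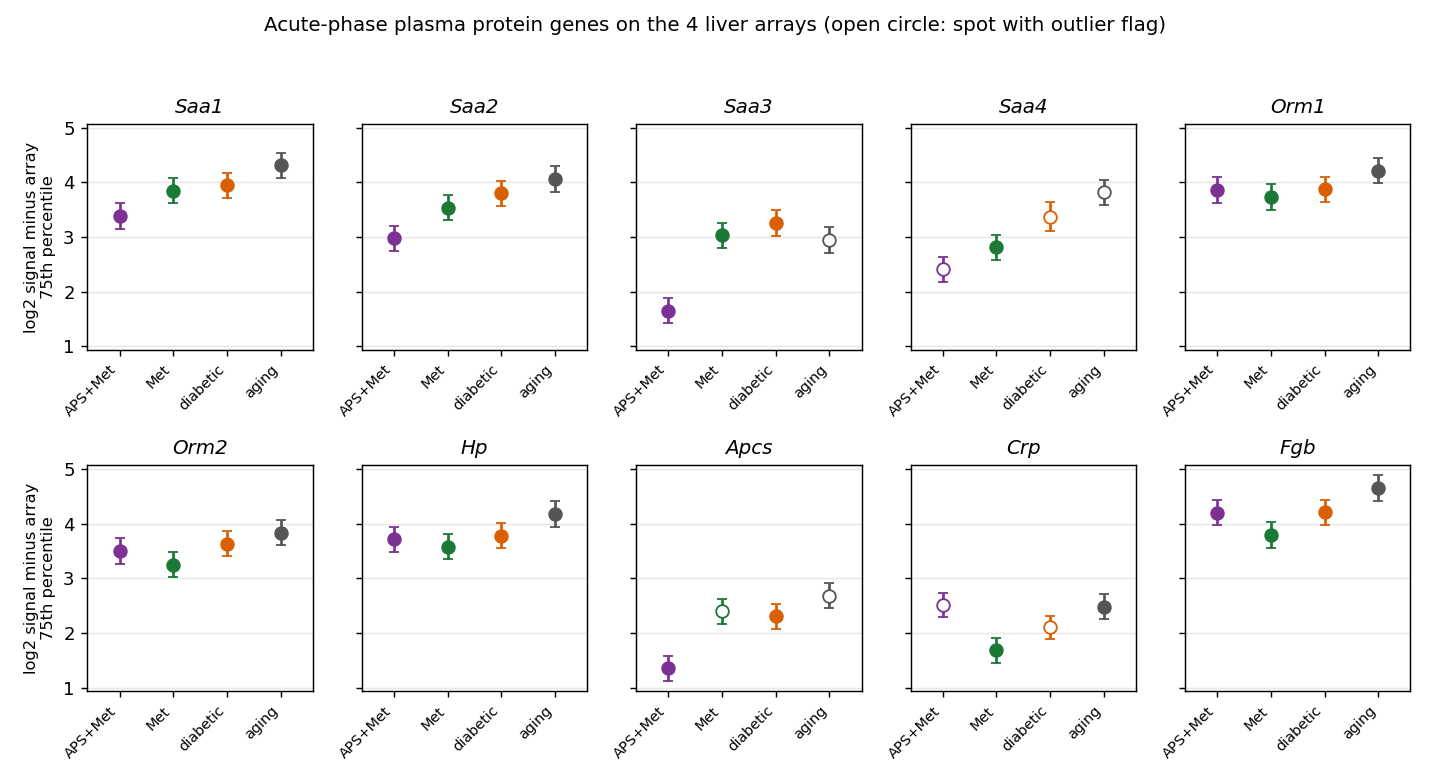
Level of each member on each array. The vertical axis is log2 signal minus the array's 75th percentile, each point is 1 spot, bars are 2 measurement errors, and open circles are spots with an outlier flag. The 4 Saa genes and Apcs were lowest on the APS plus metformin array, while Orm1, Orm2, Hp and Fgb were lowest on the metformin array.

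The combination array carried the clearest pattern. The 4 serum amyloid A genes and Apcs were lower on the APS plus metformin array than on each of the other 3 arrays. The members Orm1, Orm2, Hp and Fgb differed by no more than 0.13 log2 in size between the APS plus metformin and the aging diabetic array. Crp lay the other way and was 1.33-fold higher on the APS plus metformin array. At the 2-fold threshold 1 of 10 members, Saa3, was lower on the APS plus metformin array than on the aging diabetic array and 0 were higher. Among all 16220 genes compared, 6.78% were at least 2-fold lower and 4.42% at least 2-fold higher (11.2% in either direction), so the count of members called is near the background. The median difference was -0.35 log2 over the members and 0.02 over all genes.

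Saa3 encodes a serum amyloid A that in mice is made by macrophages and adipocytes as well as by the inflamed liver. Its level was 1.65 on the APS plus metformin array, 3.03 on the metformin array, 3.26 on the aging diabetic array and 2.95 on the natural aging array. The APS plus metformin array stood apart, and the other 3 arrays lay within 0.31 of each other. As processed intensities, the same spots read 10707 on the APS plus metformin, 29386 on the metformin, 29371 on the aging diabetic and 20806 on the natural aging array. The APS plus metformin level was 3.05-fold below the aging diabetic level, a log2 difference of -1.61 with an error of 0.16. It was 2.60-fold below the metformin level (-1.38) and 2.45-fold below the natural aging level (-1.29). Across the alternative ways of processing, these 3 differences ran from -1.69 to -1.59, from -1.65 to -1.38 and from -1.29 to -1.12.

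Because macrophages, neutrophils and adipocytes can carry Saa3 or travel with it, their markers were read beside it. All 7 macrophage markers were well above background on every array. Their summed signal, in multiples of the array's 75th percentile, was 27.8 on the APS plus metformin, 40.6 on the metformin, 33.1 on the aging diabetic and 47.4 on the natural aging array. Between the APS plus metformin and aging diabetic arrays 1 of 7 macrophage markers was at least 2-fold lower, the scavenger receptor Marco at -2.35, and the median was -0.18. The 8 neutrophil markers summed to 5.07, 7.09, 5.75 and 13.0 on the APS plus metformin, metformin, aging diabetic and natural aging arrays. Of them, 3 of 8 were at least 2-fold lower on the APS plus metformin array than on the aging diabetic array, with a median of -0.69. The granule genes S100a8 (-1.55) and Camp (-2.40) were among these. S100a9 (-0.62) and Retnlg (-0.24) were lower but short of 2-fold. Ly6g (0.43) and Cxcr2 (at least 0.52), 2 of the 8 markers, lay the other way. The S100a8 spot on the aging diabetic array and the Ly6g spots on both arrays carried an outlier flag. For the neutrophil list, Ngp and Ltf were not well above background on the APS plus metformin array, and neither Ngp on the metformin array nor Cxcr2 on the aging diabetic array was. The 6 adipocyte markers summed to 14.3, 11.8, 10.1 and 14.8 on the APS plus metformin, metformin, aging diabetic and natural aging arrays. Fabp4 made up most of this sum, at 3.55 on the APS plus metformin and 3.01 on the aging diabetic array. The aging diabetic Fabp4 spot carried an outlier flag. The lipid droplet gene Plin1 was not well above background on any array. Between these 2 arrays 1 of 5 adipocyte markers compared, Cfd, was at least 2-fold lower (2.84-fold) and 0 were higher. The median was 0.12, with 3 of the 5 above 0 and 2 below. Against the metformin array Cfd was 13.9-fold lower. The part of these cells in the Saa3 difference was not tested. In whole tissue, fewer cells of a type and less RNA per cell cannot be told apart.

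Saa1 and Saa2 encode the inducible serum amyloid A proteins of liver, which circulate on high-density lipoprotein. Saa1 stood at 3.39 on the APS plus metformin, 3.85 on the metformin, 3.94 on the aging diabetic and 4.32 on the natural aging array. Saa2 stood at 2.98 on the APS plus metformin, 3.54 on the metformin, 3.80 on the aging diabetic and 4.06 on the natural aging array. Both genes had the same order of arrays. The step between metformin and aging diabetic was within 2 errors for both, and for Saa2 so was the step between aging diabetic and natural aging. Against the aging diabetic array the APS plus metformin level was lower by -0.56 for Saa1, with an interval of 2 errors from -0.89 to -0.23. For Saa2 the difference was -0.82, with an interval from -1.15 to -0.50. Against the natural aging array the differences were -0.93 for Saa1 and -1.08 for Saa2. After quantile normalization the Saa2 difference from natural aging was -0.86, short of 2-fold. Saa1 and Saa2 are near-identical copies, and the probe sequences were not used here, so how far each probe reads the other gene was not tested.

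Saa4 encodes the constitutive serum amyloid A of high-density lipoprotein. It stood at 2.41 on the APS plus metformin, 2.81 on the metformin, 3.37 on the aging diabetic and 3.82 on the natural aging array. The 4 arrays were each apart from their neighbours in this order by more than 2 errors. The APS plus metformin level was 1.95-fold below the aging diabetic level (-0.96) and 2.66-fold below the natural aging level (-1.41). The spots on all 3 of these arrays carried an outlier flag. With the median pixel of each spot in place of the processed signal, the difference from aging diabetic was -0.50 and that from natural aging -1.43. The step between metformin and aging diabetic was -0.56, but -0.18 with the median pixel and -0.06 after normexp correction with quantile normalization, both within 2 errors.

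Serum amyloid P component (Apcs), a pentraxin that binds amyloid fibrils and nuclear debris, was, like the Saa genes, lowest on the APS plus metformin array. It stood at 1.36 on the APS plus metformin, 2.39 on the metformin, 2.31 on the aging diabetic and 2.68 on the natural aging array. The APS plus metformin array alone was low, and the metformin and aging diabetic arrays were within 0.09 of each other. Its difference was -0.95 with an error of 0.16 against aging diabetic, -1.04 against metformin and -1.32 against natural aging. The difference from aging diabetic ran from -1.02 to -0.90 under the other settings.

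Crp, a pentraxin that binds phosphocholine on microbes and damaged cells, lies on the same chromosome as Apcs and did not share its pattern. Crp stood at 2.51 on the APS plus metformin, 1.69 on the metformin, 2.11 on the aging diabetic and 2.48 on the natural aging array. The APS plus metformin and natural aging arrays were level, and the metformin array was lowest. The difference between APS plus metformin and metformin was 0.83 with an error of 0.16, and that between APS plus metformin and aging diabetic was 0.41. With the median pixel of each spot these were 0.47 and 0.13. The Crp spots on the APS plus metformin and aging diabetic arrays carried an outlier flag.

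**Figure D2:**
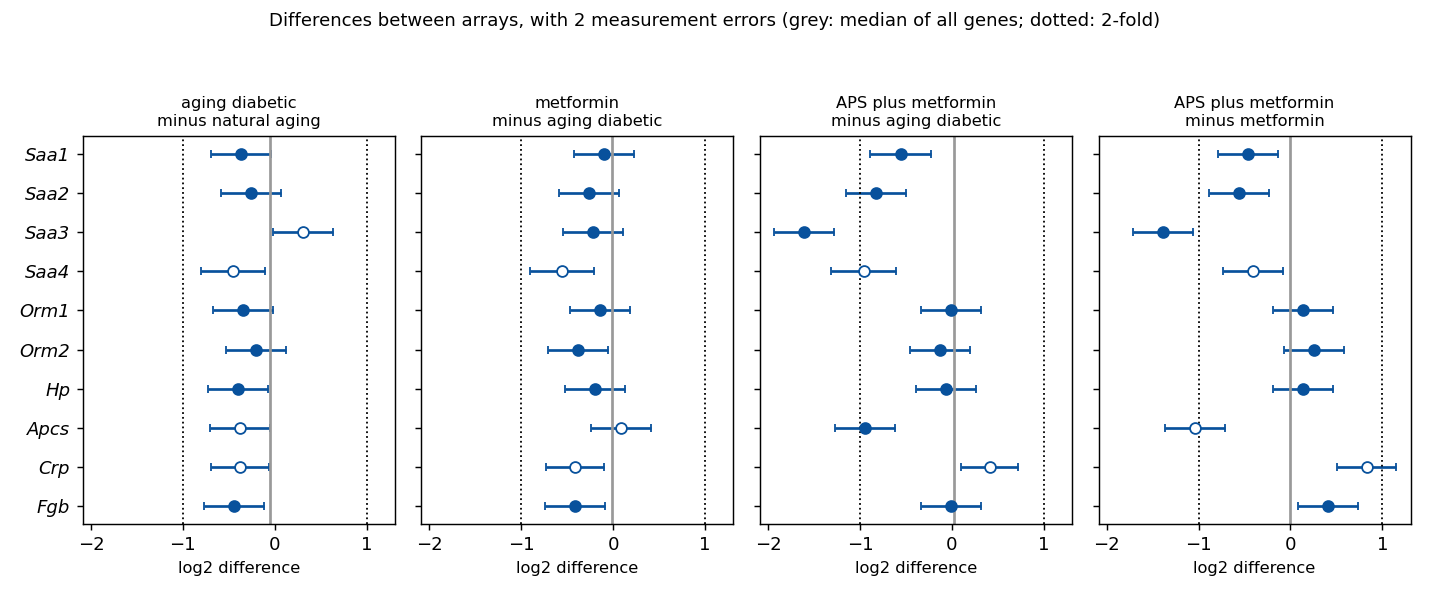
Log2 differences of the 10 members in 4 comparisons. Points are differences between 2 arrays, bars are 2 measurement errors, open points involve a spot with an outlier flag, the grey line is the median of all genes and dotted lines mark 2-fold. Saa3 lay beyond 2-fold in both comparisons of APS plus metformin with another diabetic array, at -1.61 and -1.38.

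Between APS plus metformin and metformin alone, which differ by the addition of APS, 2 of 10 members were at least 2-fold lower and 0 were higher. These were Saa3 (-1.38) and Apcs (-1.04). Of all 17076 genes compared, 12.1% were at least 2-fold lower and 2.42% higher (14.5% in either direction). The median was -0.14 over the members, against -0.01 over all genes. Members on either side of 0 were equal in number, 5 and 5: the Saa genes and Apcs were lower, and the orosomucoids, Hp, Fgb and Crp were higher. The small positive differences of Orm1 (0.13), Orm2 (0.25) and Hp (0.14) were within 2 errors and turned negative after quantile normalization, at -0.20, -0.07 and -0.20. Without spots with an outlier flag Apcs could not be compared here, because its metformin spot was flagged, and 1 member remained past 2-fold.

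The remaining members, all abundant hepatocyte products, stayed closer together. Orm1 and Orm2 encode alpha-1-acid glycoproteins, plasma lipocalins that bind drugs and lipids. Orm1 stood at 3.86 on the APS plus metformin, 3.73 on the metformin, 3.87 on the aging diabetic and 4.21 on the natural aging array. Orm2 stood at 3.50 on the APS plus metformin, 3.25 on the metformin, 3.63 on the aging diabetic and 3.83 on the natural aging array. For both genes the 3 diabetic arrays followed each other in steps within 2 errors. The neighbouring copy Orm3, which was no member, differed by 0.31 between APS plus metformin and aging diabetic. Its APS plus metformin spot carried an outlier flag. Cross-hybridization among the Orm copies was not tested.

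Hp encodes haptoglobin, which captures free haemoglobin. It stood at 3.71 on the APS plus metformin, 3.58 on the metformin, 3.78 on the aging diabetic and 4.18 on the natural aging array. Fgb encodes the beta chain of fibrinogen, the precursor of the fibrin clot. It stood at 4.20 on the APS plus metformin, 3.79 on the metformin, 4.21 on the aging diabetic and 4.65 on the natural aging array. Both genes were highest on the natural aging array, and the aging diabetic and APS plus metformin arrays were within 0.07 of each other. The other fibrinogen chains did not follow one pattern. Between APS plus metformin and aging diabetic, Fgg differed by -0.02 and Fga by -0.56, although a second Fga probe differed by 0.12.

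The aging diabetic array was compared with the natural aging array to ask how the diabetic state bears on these genes. None of the members was at least 2-fold higher or lower, a count of 0 of 10 each way, where 8.09% of 15896 genes were higher and 6.07% lower (14.2% either way). Of the 10 members, 9 had negative differences, between -0.45 (Saa4) and -0.20 (Orm2), and Saa3 had a positive one of 0.31. The interval of 2 errors of the Saa3 difference was from -0.01 to 0.64. The members' median was -0.37, against -0.05 over all genes. After quantile normalization their median was -0.05, with Orm2 at 0.11, Saa2 at 0.07 and Saa3 at 0.55. The negative acute-phase list and hepatocyte markers, which share Alb and Apoa1, were shifted in the same way, with medians of -0.36 and -0.33. The natural aging array also carried the 6 pancreatic acinar markers at a summed signal of 32.4, against 0.244 on the APS plus metformin, 4.11 on the metformin and 1.01 on the aging diabetic array. The part of that in the member differences was not tested.

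Metformin alone was compared with no drug in the diabetic groups. Again 0 of 10 members were called in either direction, where 11.6% of 16949 genes were at least 2-fold higher and 3.42% lower (15.0% either way). Differences ran from -0.56 for Saa4 to 0.09 for Apcs, with a median of -0.24 over the members and -0.02 over all genes. The Saa4 difference, whose aging diabetic spot carried an outlier flag, was -0.06 after normexp correction with quantile normalization. As reported, the differences of Saa4, Crp (-0.42), Fgb (-0.42) and Orm2 (-0.39) exceeded 2 errors. The members' median was -0.09 after quantile normalization. Other hepatocyte genes lay the same way as the members. As reported, all 7 hepatocyte markers (median -0.38) and all 12 negative acute-phase genes (median -0.20) were lower on the metformin array. Alb and Apoa1 count in both lists. After quantile normalization the median of the negative acute-phase genes was -0.02.

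Both treated groups were also set beside natural aging, the same array that the aging diabetic one was set against. On the APS plus metformin array 4 of 10 members were at least 2-fold lower than on the natural aging array, namely Saa4, Apcs, Saa3 and Saa2. The shares over all 15868 genes were 6.69% lower and 6.31% higher (13.0% either way). The members' median was -0.70, against -0.03 over all genes. It was -0.23 over the hepatocyte markers and -0.32 over the negative acute-phase genes. The natural aging spots of Saa4, Apcs and Saa3 carried an outlier flag, and without such spots 1 of the members left, Saa2, was past 2-fold. On the metformin array 1 of 10 members was at least 2-fold lower than on the natural aging array, Saa4 at -1.01, where 4.82% of 16636 genes were lower and 13.1% higher (17.9% either way). Saa4 was at -0.59 after quantile normalization, short of 2-fold. Among the genes called in this comparison 73.0% were higher, or 83.3% when the 75th percentile was taken over probes detected on all 4 arrays.

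**Figure D3:**
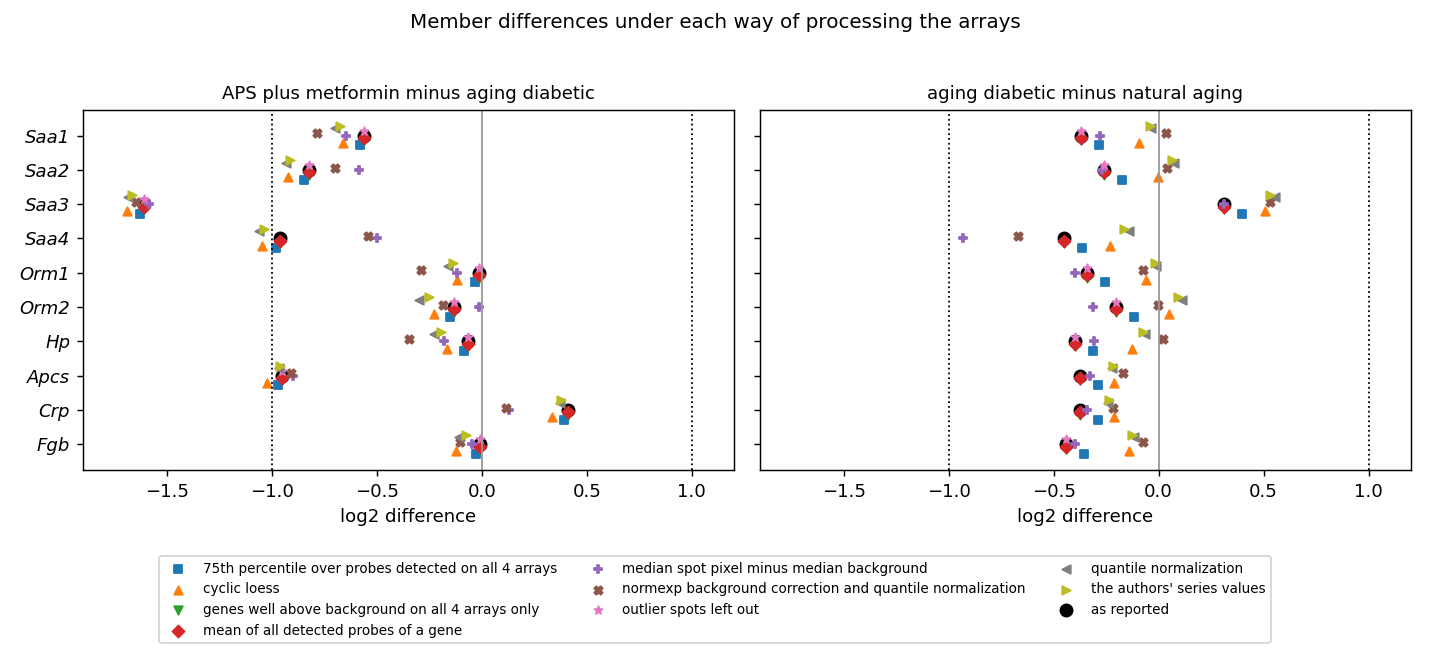
Member differences under each way of processing the arrays, for APS plus metformin minus aging diabetic (left) and aging diabetic minus natural aging (right). Large black points are the values as reported and small symbols the alternatives, on a log2 axis with dotted lines at 2-fold. Saa3 kept to between -1.69 and -1.59 on the left, while most members on the right moved towards 0 under quantile normalization.

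The promoters of the Saa genes, Apcs and Crp are shown because the Saa genes and Apcs were lowest on the APS plus metformin array, and Crp, the other pentraxin, was not. RefSeq promoters (GRCm38.p6) matched 8 of the 10 members, and Orm1 and Hp are named only. Each holds 250 bases before and 50 after a transcript start, written 5′ to 3′ on the strand of the gene. Capitals mark matches to the C/EBP letters TTNNGNAA and the NF-kB letters (GGG, then any 5 bases, then CC) on either strand, which may overlap each other. The windows are chr7:46742931-46743230 (minus strand) for Saa1, chr7:46751583-46751882 (plus strand) for Saa2, chr7:46715627-46715926 (minus strand) for Saa3 and chr7:46732554-46732853 (minus strand) for Saa4. They are chr1:172895005-172895304 (minus strand) for Apcs and chr1:172697806-172698105 (plus strand) for Crp.
Saa1: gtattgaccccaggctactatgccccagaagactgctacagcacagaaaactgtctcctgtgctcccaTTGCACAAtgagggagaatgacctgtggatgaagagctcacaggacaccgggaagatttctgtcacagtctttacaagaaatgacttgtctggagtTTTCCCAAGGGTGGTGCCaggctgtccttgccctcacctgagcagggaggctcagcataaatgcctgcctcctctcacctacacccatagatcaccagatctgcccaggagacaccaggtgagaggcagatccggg
Saa2: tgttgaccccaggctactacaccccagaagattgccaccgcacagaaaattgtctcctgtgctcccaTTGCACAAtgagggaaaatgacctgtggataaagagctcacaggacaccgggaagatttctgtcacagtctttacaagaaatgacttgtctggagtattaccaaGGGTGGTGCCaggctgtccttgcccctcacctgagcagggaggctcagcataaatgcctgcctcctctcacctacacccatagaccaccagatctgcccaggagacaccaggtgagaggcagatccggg
Saa3: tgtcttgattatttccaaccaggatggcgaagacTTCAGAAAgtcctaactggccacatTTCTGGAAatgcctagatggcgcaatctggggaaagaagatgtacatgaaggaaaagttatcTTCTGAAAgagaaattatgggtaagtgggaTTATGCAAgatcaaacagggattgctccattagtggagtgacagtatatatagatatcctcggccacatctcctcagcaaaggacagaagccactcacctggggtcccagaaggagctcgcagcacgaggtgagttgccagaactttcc
Saa4: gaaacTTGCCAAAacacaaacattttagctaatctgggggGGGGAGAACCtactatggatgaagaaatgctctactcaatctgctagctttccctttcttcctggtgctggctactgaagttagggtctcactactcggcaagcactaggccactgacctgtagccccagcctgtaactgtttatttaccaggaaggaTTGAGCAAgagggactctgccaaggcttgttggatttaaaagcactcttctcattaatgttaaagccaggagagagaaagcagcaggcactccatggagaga
Apcs: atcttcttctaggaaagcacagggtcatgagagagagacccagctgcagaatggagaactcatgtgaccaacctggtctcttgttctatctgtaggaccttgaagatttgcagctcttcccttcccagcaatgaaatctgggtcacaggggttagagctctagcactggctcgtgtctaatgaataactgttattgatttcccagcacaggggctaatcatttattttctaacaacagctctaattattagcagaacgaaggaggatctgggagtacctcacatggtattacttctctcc
Crp: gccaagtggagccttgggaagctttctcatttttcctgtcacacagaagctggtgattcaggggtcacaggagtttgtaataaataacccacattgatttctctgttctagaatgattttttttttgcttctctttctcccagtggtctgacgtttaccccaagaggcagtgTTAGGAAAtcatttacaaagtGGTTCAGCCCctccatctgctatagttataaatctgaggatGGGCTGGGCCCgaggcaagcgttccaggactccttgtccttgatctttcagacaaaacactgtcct

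Saa1 and Saa2 are neighbours on chromosome 7 that are read in opposite directions, and their windows were identical at 287 of 301 aligned columns (95.3%). Saa3 and Saa4 lie in the same cluster. The Saa3 window was identical to that of Saa1 at 50.1% of aligned columns, against 46.9% between Saa1 and Apcs. A C/EBP match was found in 7 of the 8 member windows, in all but that of Apcs, and in 40.7% of all 32851 promoters. The Saa3 window held 4 such matches, starting at positions -216, -191, -129 and -99 from the transcript start. An NF-kB match was found in 4 of the 8 windows, of Saa1, Saa2, Saa4 and Crp, and in 50.8% of all promoters. The letters of a STAT3 site, TTCNNNGAA, were found in Apcs and Fgb, in 2 of 8 windows and 8.30% of all promoters. The shorter interleukin-6 element CTGGGAA was also found in these 2 windows, with 2 matches in Apcs, and in 11.1% of all promoters. TATAAA was found in Orm2 and Crp and in 13.6% of all promoters. These are matches of letters in a short window and say nothing of which factor binds.

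**Figure D4:**
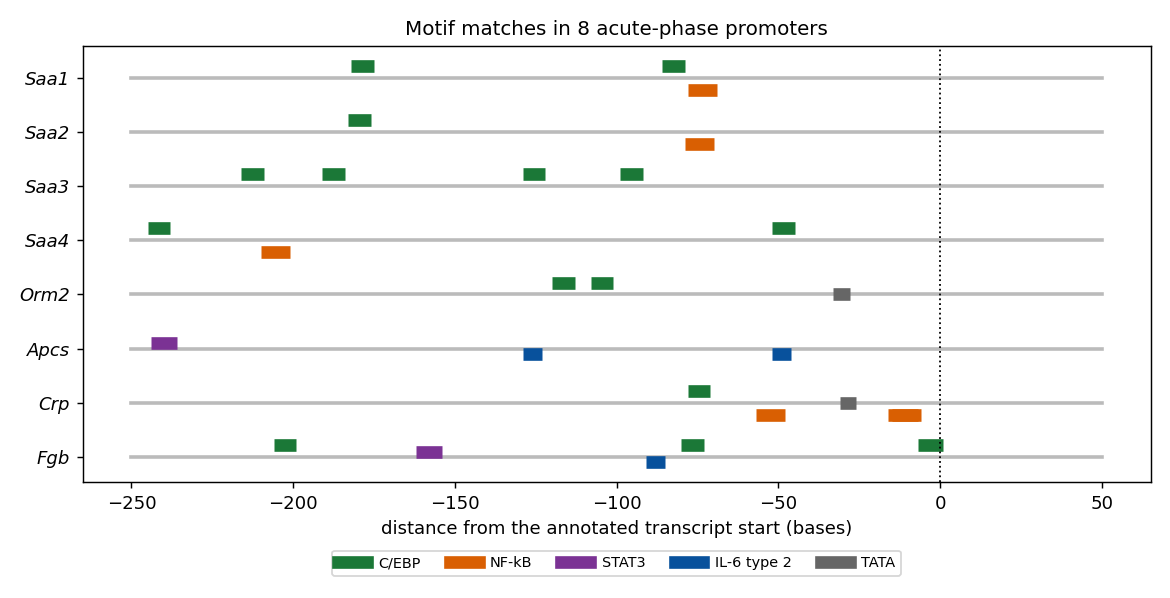
Matches to 5 motifs in the promoters of 8 members, by distance in bases from the transcript start (dotted line). Each bar is 1 match, coloured by motif. Saa1 and Saa2 share a C/EBP and an NF-kB match in nearly the same places, and Saa1 has a further C/EBP match at -86. Saa3 has 4 C/EBP matches, and Apcs has STAT3 and interleukin-6 matches but none for C/EBP or NF-kB.

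Taken as a list, other acute-phase genes did not share the pattern of the Saa genes, but single genes did share its order of arrays. Of 26 further genes whose products rise in the acute phase, 25 were compared between APS plus metformin and aging diabetic. In this list 1 gene was at least 2-fold higher, the endotoxin co-receptor Cd14 (1.21), and 0 were lower. The list's median was 0.02, the same as that over all genes, with 14 genes above 0 and 11 below. Lrg1 and C4b had the array order of Saa1 and Saa2, with smaller differences of -0.31 and -0.33 in this comparison. Lipopolysaccharide-binding protein (Lbp) stood at 2.12 on the APS plus metformin, 1.62 on the metformin, 2.74 on the aging diabetic and 2.17 on the natural aging array. The Lbp spots on the metformin and aging diabetic arrays carried an outlier flag. Lipocalin-2 (Lcn2), an iron-scavenging protein, stood at 3.66, 3.89, 3.87 and 4.06 on the APS plus metformin, metformin, aging diabetic and natural aging arrays. It was lowest on the APS plus metformin array, by -0.21 against aging diabetic.

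Against the metformin array, 1 of these 25 genes was at least 2-fold lower on the APS plus metformin array and 0 were higher. The median was 0.24 (-0.09 after quantile normalization). Between metformin and aging diabetic, 2 were at least 2-fold higher, Cd14 (1.49) among them, and 1 was lower, Lbp (-1.13). Between aging diabetic and natural aging, 3 were at least 2-fold lower, the metalloreductase Steap4 (-2.17) and Cd14 (-1.19) among them, and 0 were higher. Steap4 was flagged as an outlier on every array. The median of the list was -0.42 there, or -0.09 after quantile normalization.

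Genes whose products drop in the acute phase stayed short of 2-fold. None of the 12 negative acute-phase genes was at least 2-fold higher or lower in any of the 6 comparisons. Their median was 0.08 between APS plus metformin and aging diabetic and 0.32 between APS plus metformin and metformin (0.02 after quantile normalization). Between metformin and natural aging all 12 were lower, with a median of -0.59 (-0.06 after quantile normalization). The members' median there was -0.55 (-0.06 after quantile normalization). Albumin (Alb) differed by 0.11 between APS plus metformin and aging diabetic. Apoa1, the main protein of high-density lipoprotein, differed by 0.17. Both differences were within 2 errors. The Alb spots on both arrays and the Apoa1 spot on the APS plus metformin array carried an outlier flag.

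**Figure D5:**
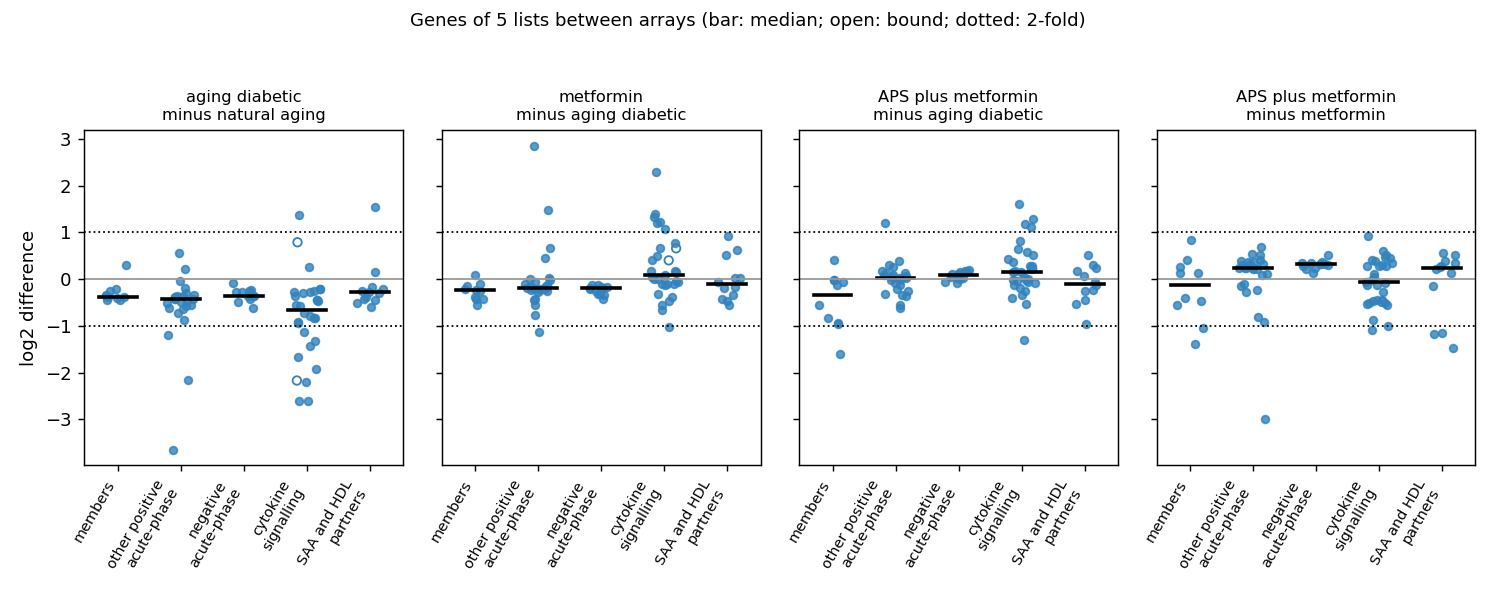
Log2 differences of the genes in 5 lists, in 4 comparisons. Each point is a gene, open points are bounds where 1 array was not well above background, black bars are list medians and dotted lines mark 2-fold. Between APS plus metformin and aging diabetic the members' median of -0.35 lay below the medians of the other 4 lists.

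In the cytokine signalling list, which holds the ligands, receptors and transcription factors upstream of the members, 30 of 33 genes were compared between APS plus metformin and aging diabetic. At least 2-fold higher were 4 and at least 2-fold lower was 1. The interleukin-1 receptor gene Il1r1 differed by 1.60, the ligands Il1a and Il1b by 1.30 and 1.17, and the NF-kB cofactor Nfkbiz by 1.12. The second Nfkbiz probe differed by 0.17 and the second Il1b probe by 1.43. The median of the list was 0.16, beside medians of 0.84 over the lymphocyte and 0.60 over the endothelial and stellate markers, whose part was not tested. Il6, the main inducer of the acute phase, was not well above background on the APS plus metformin or the aging diabetic array.

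Receptor and signalling genes of the interleukin-6 pathway were named in the same comparison, and none of those given here reached 2-fold. The receptor gene Il6ra differed by 0.29, and by 0.82 on its second probe. Il6st (gp130) differed by 0.15 and Stat3 by 0.04. The feedback inhibitor Socs3 differed by 0.57, more than 2 errors. Among the factors that act on acute-phase promoters, Cebpb differed by 0.18 and Cebpd by 0.36. Nfkbia, which holds NF-kB in the cytoplasm, differed by 0.43. Against metformin alone, 2 of 31 genes were at least 2-fold lower, Socs1 (-1.10) and Il1a (-1.01), and 0 were higher.

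Against natural aging the same list lay lower on the aging diabetic array. At least 2-fold lower were 9 of 30 genes and 1 was higher, with a median of -0.66 (-0.54 after quantile normalization). Socs3 stood at -0.30 on the aging diabetic array and 2.32 on the natural aging array, a difference of -2.62. Il1r1 differed by -2.62 and Il1a by -2.20. Tnf was not well above background on the aging diabetic array and was at least 4.50-fold lower. Its natural aging spot carried an outlier flag. Between metformin and aging diabetic 6 of 31 genes were at least 2-fold higher and 1 was lower, with Il1a at 2.30, Relb at 1.40, the oncostatin M receptor gene Osmr at 1.33 and Il1b at 1.22. Markers of other cells lay the same way in both comparisons. Between metformin and aging diabetic, 5 of 5 lymphocyte markers compared were at least 2-fold higher (median 3.14), as were 5 of 8 endothelial and stellate markers (median 1.30). For aging diabetic against natural aging, the median was -1.41 over the lymphocyte, -0.93 over the neutrophil and -0.74 over the endothelial and stellate markers. Their part in the cytokine list was not tested. The members themselves held 0 calls in both comparisons.

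Among 12 genes that act with serum amyloid A on high-density lipoprotein or as its receptors, 3 were at least 2-fold lower on the APS plus metformin array than on the metformin array and 0 were higher. They were Tlr2 (-1.47), the formyl peptide receptor gene Fpr2 (-1.18) and Tlr4 (-1.15). In the same comparison all 5 lymphocyte markers compared were at least 2-fold lower (median -2.29), the neutrophil markers had a median of -1.42, and all 7 macrophage markers had negative differences (median -0.50). Their part in these calls was not tested. Against aging diabetic 0 of 12 were called, with Tlr2 at -0.96. The scavenger receptor gene Cd36 was 2.93-fold higher on the aging diabetic array than on the natural aging array (1.55), the only call of this list there, and its spots were flagged on the metformin, aging diabetic and natural aging arrays.

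The members were also compared by the shape of their levels over the 4 arrays, as a description with 4 points each. The measure was the root mean square distance between log2 profiles centred on their own mean, over 14241 genes well above background on every array. Saa1 and Saa2 lay 0.10 apart, and Orm1 and Hp lay 0.05 apart. Many other genes lay nearer to each. Saa2 ranked 43 by nearness to Saa1, and Saa1 ranked 25 by nearness to Saa2. Hp ranked 199 by nearness to Orm1, and Orm1 ranked 94 by nearness to Hp. Saa3 was farther from every member, with Apcs the nearest at 0.28. Among the 5 genes nearest to Saa3 were Usp24, Zbtb32, Lyz2 and Tppp, at 0.06 to 0.10. The 5 nearest to Saa1 were Krtap16-3, Rbm4, Cybc1, Sntb1 and Ahcyl2, at 0.02 to 0.05.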

How the data were processed

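Whole liver RNA was labelled with Cy5 and read on 4 one-colour arrays, 1 per group. Per the file headers, the deposited spot intensity is the processed signal of Agilent Feature Extraction 11.5.1.1 (10.7 per the submitters' processing notes), background-subtracted and detrended within the array. Flags of 0 or 1 for background, saturation and outliers are the software's. The deposited series table holds log2 values by the authors, with no normalization named in the sources used here. Its column medians were 7.85, and it differed from a quantile normalization of the intensities by an SD of at most 0.0051.

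Spots of a probe were averaged as log2 after subtracting each array's 75th percentile (2699.5 to 3589), with flagged spots kept (Python 3.11.15, pandas 2.3.3, limma 3.58.1 for alternatives). Probe accessions matched 33767 of 56605 probes to a RefSeq table. The probe with the highest mean signal stood for a gene. Comparisons took genes well above background on 1 or both arrays, and a dim side was raised to the array's lowest well-above-background signal where it lay under it. No p-value was computed, because 1 array per group leaves no residual degrees of freedom. The number of arrays limits the precision, beside measurement error, flagged spots and scaling. The calling procedure, a fixed cut at 2-fold, was tested on simulated data. Such a test cannot stand in for the spread between mice, which 1 array per group leaves unknown. In the text, all members are named. Of each further list, up to 4 genes with the largest differences per comparison are named, with 12 fixed genes. The markers beside Saa3 were also named where they fell outside this rule, after their values were seen. So were Il6, Orm3, Nfkbiz, Lrg1 and C4b. Some genes that this rule names are not reported here. The members and lists were chosen with earlier results of these data known.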

Additional observations from a re-analysis of the deposited data

How the results depend on the processing

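Of 8 alternatives set at the start and 1 added after seeing the data (the median pixel of a spot minus its background), none turned the sign of a called member difference. Over all member differences, 182 values under the alternatives moved by 1 measurement error or more, and 339 by less. Members have 1 spot each, well above background on all 4 arrays. Averaging probes, requiring detection on all 4 arrays and leaving out flagged spots therefore returned the reported value or none. Such fixed values are among the 339 and in the sign counts below. The authors' series values nearly repeat the quantile normalization. Some differences short of 2-fold did change sign. Saa1 between metformin and aging diabetic kept its sign in 4 of 9 alternatives. Orm1, Orm2 and Hp between APS plus metformin and metformin each kept it in 5 of 9. Between APS plus metformin and aging diabetic, the count of members at least 2-fold lower was 1, against 2 after quantile normalization, 2 in the authors' series values and 3 after cyclic loess, which add Saa4 and, under cyclic loess, Apcs. Without spots with an outlier flag it was 1 between APS plus metformin and metformin (2 with them) and 1 between APS plus metformin and natural aging (4 with them), by construction, since members have 1 spot each. Between metformin and natural aging the count was 1 (Saa4), and 0 under quantile normalization, the 75th percentile over probes detected on all 4 arrays, cyclic loess, normexp correction, the authors' series values and with flagged spots left out. When genes had to be well above background on all 4 arrays, fewer genes were compared: 1135 in place of 1965 were at least 2-fold higher between metformin and aging diabetic, and 1376 in place of 2173 between metformin and natural aging. Between APS plus metformin and metformin, 274 in place of 413 were higher and 1214 in place of 2062 lower. Scaling moved the median of all genes by up to 0.18 log2 (metformin minus natural aging). The array files hold no mean pixel signal, so normexp used the median. No paired analysis was possible because each group has 1 array. With 1 array per group, the spread between mice is unknown, and measurement error is the only error given.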
